A study of Mus musculus with 6 samples.

Results

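The interval around Lrat and Rbm46 on mouse chromosome 3 holds 66 of the 42256 genes in the deposited table. Members were the protein-coding genes of the GENCODE M21 annotation that start on chromosome 3 between 77 and 88 Mb of GRCm38, leaving out Pdgfc and Sfrp2. The interval was chosen because Glrb, Rbm46 and Lrat had been seen higher in the Htr2b_cKO libraries of these same data, so every difference between the genotypes among members is a description. Counts past a test's threshold are given only beside the share over all genes, and nothing is read from them. A member was tested where its counts passed a low-count filter: 54 passed and 12 did not. The 12 were Gm17359, Rxfp1, Gria2, Asic5, Fgg, Fga, Fgb, Gm6525, Tigd4, Prss48, Mab21l2 and Fcrl5.

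RNA came from PDGFRa+ cells, a population rich in fibroblasts, sorted by flow cytometry out of collagenase-digested heart scar at day 7 after injury. All mice were of a mixed 129S2/C57Bl6 strain, carried loxP-flanked alleles of Htr2b (a serotonin receptor gene) and ate tamoxifen chow from 1 week before injury until harvest. The 4 Htr2b_cKO libraries (Htr2bfl/flPostnMCM/+) also carried a tamoxifen-inducible Cre at Postn, the periostin gene of activated fibroblasts, and the 2 control libraries (Htr2bfl/fl) carried no Cre. Postn lies on the same chromosome as the members, at 54361109, so the Cre allele and anything inherited with it go with the genotype, and their effects and those of losing Htr2b cannot be told apart.

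Library totals ran from 28533427 to 37392496 counts. Levels are CPM on TMM-scaled library sizes, and 3 counts, the upper limit that a count of 0 allows, came to between 0.0781 and 0.108 CPM. The targeted gene was sparse: Htr2b had 13 and 7 counts in the controls and 0, 3, 29 and 4 in Htr2b_cKO 1 to 4. The library labelled Htr2b_cKO 3 thus had more Htr2b counts than either control. Whether the loxP-flanked part of the gene was lost in any library was not tested. Htr2b_cKO 4 was the only library with abundant Y-linked transcripts, with 65.6 CPM of Ddx3y against at most 0.181 CPM in the other 5, and 0.267 CPM of Xist against 385.3 to 770.4 CPM. The defining fibroblast markers were present, with Pdgfra at 668.3 to 1237 CPM and Col1a1 at 17270 to 36310 CPM in every library. Summed macrophage markers varied from 514.1 to 4288 CPM, with both extremes in the Htr2b_cKO group. Summed B cell and plasma cell markers were 1825 and 1812 CPM in the controls and 442.2, 427.6, 586.7 and 1548 CPM in Htr2b_cKO 1 to 4.

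Neighbouring genes need not share a function, and this interval mixes several tissue programs. Lrat encodes lecithin retinol acyltransferase, which turns retinol into the retinyl esters that stellate cells and the retinal pigment epithelium store. Rbm46 encodes an RNA-binding protein of germ cells that is required for meiosis, and Glrb encodes the beta subunit of the glycine receptor, which ties the receptor to gephyrin at inhibitory synapses. The interval also holds the fibrinogen genes of hepatocytes, the subunits of soluble guanylate cyclase, the ribosomal protein gene Rps3a1, and a group of genes for Fc receptor-like proteins, a glial proteoglycan and nestin near its distal end.

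Because the interval was picked on Glrb, Rbm46 and Lrat, the DNA just upstream of each is shown. Each is 250 bases from the RefSeq promoter table of GRCm38.p6, read 5′ to 3′ on the minus strand on which all 3 genes lie, and ends at the base before the RefSeq start. Capitals mark matches on either strand to 4 motifs searched by letters: TATAA (the core of a TATA box), CCAAT (bound by NF-Y), GGGCGG (a GC box) and AGGTCA (a nuclear receptor core).
Glrb, chr3:80913661-80913910: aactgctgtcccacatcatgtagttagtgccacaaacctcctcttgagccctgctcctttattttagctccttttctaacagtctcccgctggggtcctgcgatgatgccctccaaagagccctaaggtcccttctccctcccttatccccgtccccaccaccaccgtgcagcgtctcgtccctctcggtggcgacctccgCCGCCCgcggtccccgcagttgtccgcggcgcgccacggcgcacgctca
Rbm46, chr3:82876484-82876733: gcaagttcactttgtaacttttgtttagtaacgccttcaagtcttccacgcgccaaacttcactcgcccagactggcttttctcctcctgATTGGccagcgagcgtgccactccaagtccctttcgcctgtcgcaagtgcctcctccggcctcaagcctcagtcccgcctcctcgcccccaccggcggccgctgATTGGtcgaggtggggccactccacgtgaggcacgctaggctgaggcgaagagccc
Lrat, chr3:82903975-82904224: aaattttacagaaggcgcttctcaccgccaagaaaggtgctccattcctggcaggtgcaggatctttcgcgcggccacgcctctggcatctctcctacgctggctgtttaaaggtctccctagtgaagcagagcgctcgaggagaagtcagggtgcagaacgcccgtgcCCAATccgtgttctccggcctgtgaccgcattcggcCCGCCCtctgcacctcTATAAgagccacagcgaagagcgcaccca
All 3 stretches were rich in G and C, at 62.4% for Glrb, 61.2% for Rbm46 and 59.2% for Lrat, where the median over all 32851 promoters in the table was 52.4%. They held 20, 18 and 18 CpG dinucleotides, against a median of 6. The letters differed between them. Glrb matched GGGCGG once, Rbm46 matched CCAAT at 2 places, and Lrat matched each of those motifs and TATAA once. AGGTCA matched in none of these 3 windows. Over all promoters of that length, TATAA was present in 22.8%, CCAAT in 33.8%, GGGCGG in 32.7% and AGGTCA in 14.0%. Over the 54 members with an entry the shares were 22.2%, 31.5%, 53.7% and 13.0%. Members were counted by gene, with a match in any of its promoter entries. The shares over all promoters were counted by entry, so they and the member shares are not directly comparable. A match is only a match of letters.

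Lrat (ENSMUSG00000028003, chr3:82892579-82903973, minus strand) lies 28.53 Mb distal to the start of Postn. It had 3 and 8 counts in the control libraries and 19, 42, 97 and 78 in Htr2b_cKO 1 to 4. In CPM these were 0.0781 and 0.289 against 0.677, 1.27, 2.93 and 2.32. Every Htr2b_cKO library lay above both controls, and the first of them lay closest to the controls. The log2 fold change, Htr2b_cKO minus control throughout, was 3.42 (SE 0.90), and the ratio of pooled counts was 11.1 with an exact 95% interval of 6.08 to 22.5 that covers counting error only. The control value rests on 11 counts in all: the fold change was 2.64 without control 1 and 4.49 without control 2, and it was 3.10 without Htr2b_cKO 3. In bulk RNA of sorted cells, a change in the number of cells that express a gene and a change of RNA per cell cannot be told apart.

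Rbm46 (ENSMUSG00000033882, chr3:82837228-82876483, minus strand) is the neighbour of Lrat on the side towards Postn. Its counts were 17 and 21 in the controls and 85, 124, 101 and 140 in Htr2b_cKO 1 to 4, or 0.442 and 0.759 CPM against 3.03, 3.74, 3.05 and 4.16 CPM. The 4 Htr2b_cKO values lay close together and far above the controls. The log2 fold change was 2.59 (SE 0.43), the smallest SE of the 3 genes the interval was picked on, and the pooled ratio was 6.11 (4.38 to 8.75). It ranged from 2.20 to 2.98 when single libraries were left out. Per kilobase of exon, Rbm46 averaged 1.01 CPM over the 6 libraries, compared with 0.235 CPM for Lrat and 0.140 CPM for Glrb.

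Glrb (ENSMUSG00000028020, chr3:80843599-80913660, minus strand) starts 26.48 Mb from Postn. It had 4 and 2 counts in the controls and 20, 27, 40 and 34 in Htr2b_cKO 1 to 4, or 0.104 and 0.0723 CPM against 0.713, 0.813, 1.21 and 1.01 CPM. The groups did not overlap, although both controls were at or near the level of 3 counts. The log2 fold change was 3.32 (SE 0.72) and the pooled ratio 10.4 (4.65 to 28.9). In the authors' normalized signal, which divides every count by its own scaling factor, Glrb averaged 2.275 in the controls and 38.36 in Htr2b_cKO. Lrat averaged 5.99 and 57.42 there, and Rbm46 20.29 and 110.6. For Glrb the factors themselves differed between the groups by a mean of -0.475 on the log2 scale, compared with 0.007 for Lrat and 0.074 for Rbm46. That difference for Glrb rests on Htr2b_cKO 4, whose log2 factor was -1.254, where those of Htr2b_cKO 1 to 3 were 0.323, -0.091 and 0.378. The normalized Glrb values of Htr2b_cKO 1 to 4 were 18.2, 27.9, 29.3 and 78.0.

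**Figure D1:**
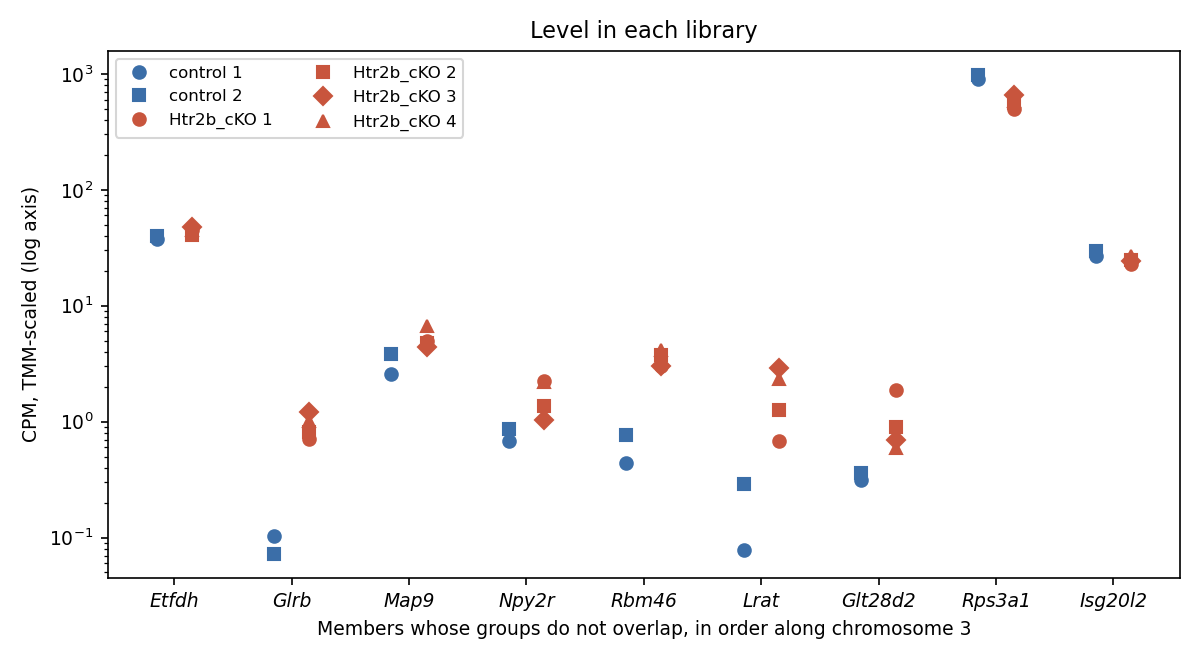
CPM of members whose control and Htr2b_cKO libraries did not overlap, on a log10 axis, with 1 point per library (2 control, 4 Htr2b_cKO). Glrb, Rbm46 and Lrat, on which the interval was picked, show the widest gaps; for Rbm46 the controls are at 0.442 and 0.759 CPM and the Htr2b_cKO libraries between 3.03 and 4.16 CPM.

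Over the 54 tested members, the 4 Htr2b_cKO libraries lay above both controls for 7 (13%), compared with 10.6% of all 15840 tested genes, and below both for 2 (3.7%), compared with 8.98%. These shares include the 3 genes the interval was picked on, so nothing is read from them. No member was called by edgeR's quasi-likelihood test at an adjusted p under 0.05, where 0.0189% of all genes were called, and at an unadjusted p under 0.05 there were 3 higher (6.6% of all genes) and 1 lower (2.99%). DESeq2 called 3 members, beside 0.442% of all genes, and 2 of these, Lrat and Rbm46, were genes the interval was picked on, while the other was Rps3a1. The median log2 fold change was 0.12 over members, 0.00 over all tested genes and 0.08 over the 720 other tested genes of chromosome 3. Without Htr2b_cKO 3, 11 members lay wholly higher beside 17.3% of all genes, and without both Htr2b_cKO 3 and 4 the number was 13 of 53 beside 21.1%. Fewer libraries make non-overlap more frequent for all genes.

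The members that did not overlap and were higher, besides those 3, were Npy2r, Map9, Glt28d2 and Etfdh. Npy2r, a receptor for neuropeptide Y, read 0.677 and 0.868 CPM in the controls and 2.25, 1.36, 1.03 and 2.20 CPM in Htr2b_cKO 1 to 4. Its log2 fold change was 1.15 (SE 0.52). Map9, a microtubule-associated protein of the mitotic spindle, read 2.58 and 3.87 CPM against 4.95, 4.79, 4.38 and 6.68 CPM, with a log2 fold change of 0.71 (SE 0.31). For both genes the lowest Htr2b_cKO library lay only a little above the higher control. Glt28d2, a glycosyltransferase-like gene, read 0.312 and 0.362 CPM against 1.89, 0.904, 0.694 and 0.594 CPM, a log2 fold change of 1.56 (SE 0.72). Its value was highest in Htr2b_cKO 1, and the fold change was 1.13 without that library. Glt28d2 lies inside the readthrough gene Gm37240 on the same strand, so reads from the 2 cannot always be told apart, and Gm37240 itself read 1.35 and 0.832 CPM against 0, 0.271, 0.513 and 1.25 CPM.

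Etfdh, which passes electrons from fatty acid and amino acid oxidation to ubiquinone, differed far less. It read 37.7 and 40.2 CPM against 45.3, 40.7, 47.7 and 44.7 CPM, a log2 fold change of 0.19 (SE 0.13) that became -0.03 after correction for GC content and length. Etfdh overlaps 4930579G24Rik on the opposite strand. Its Htr2b_cKO 2 value and the higher control were nearly equal.

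Lower, without overlap, were Rps3a1 and Isg20l2. Isg20l2, a nucleolar exonuclease of ribosome biogenesis, read 26.8 and 29.8 CPM in the controls and 22.9, 24.6, 24.2 and 26.8 CPM in Htr2b_cKO, a log2 fold change of -0.20 (SE 0.14). The Htr2b_cKO 4 and control 1 values were all but equal, and under DESeq2's size factors in the edgeR fit 1 member lay wholly lower, beside 9.28% of all genes. Rps3a1 was the most abundant member and has near-identical copies.

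The place of the higher members along the interval follows in part from the genes it was picked on. Over all tested genes, 10.6% lay wholly higher and 8.98% wholly lower. From Gria2 to Lrat, a stretch delimited after the values were seen, 5 of 9 tested members (55.6%) lay wholly higher and none lower. Those 5 were Map9, Npy2r and the genes the interval was picked on, Glrb, Rbm46 and Lrat. Apart from the picked genes, Etfdh lay wholly higher proximal to Gria2, Map9 and Npy2r in the stretch, and Glt28d2 distal to Lrat. The median log2 fold change in the stretch was 1.02. That is the value of Tdo2 (SE 1.46), whose groups overlapped and which stood high only in Htr2b_cKO 4. The members there, in order, were Gria2 (not tested), Glrb, Ctso, Tdo2, Asic5 (not tested), Gucy1b1, Gucy1a1, Map9, Npy2r, Rbm46 and Lrat. Proximal to Gria2, 1 of 7 tested members lay wholly higher, and the median was 0.19. Distal to Lrat, 1 of 38 lay wholly higher and 2 wholly lower, and the median was -0.05. Median GC content was 43.8% proximal to Gria2, 42.0% from Gria2 to Lrat and 50.4% distal to Lrat. After the correction for GC content and length, 5 of 9 in the stretch, picked genes included, lay wholly higher, beside 6.77% of all genes. The median there was then 0.70. Members and stretch were both chosen on this contrast, so the counts for the stretch are a description only and nothing is read from them.

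Within that stretch, members whose groups overlapped stood beside the higher ones. Ctso, a lysosomal cathepsin, read 37.1 and 53.8 CPM against 31.5, 38.6, 49.3 and 47.9 CPM, a log2 fold change of -0.12 (SE 0.22). Gucy1a1 and Gucy1b1 encode the subunits of soluble guanylate cyclase, the receptor for nitric oxide. Gucy1a1 read 67.9 and 82.8 CPM against 76.5, 87.6, 79.9 and 86.8 CPM, and Gucy1b1 read 26.3 and 17.5 CPM against 26.4, 35.2, 43.2 and 18.5 CPM. Their log2 fold changes were 0.14 (SE 0.14) and 0.49 (SE 0.34), and both overlapped between groups. Tdo2, which opens the kynurenine route of tryptophan breakdown, read 0.442 and 1.52 CPM against 0.178, 0.482, 0.513 and 6.06 CPM. Only Htr2b_cKO 4 stood high for Tdo2, and the SE of 1.46 exceeded the log2 fold change of 1.02. Gria2, an AMPA receptor subunit, had 1 count over both controls and 22 over the 4 Htr2b_cKO libraries, a ratio of 11.4 with an interval of 1.84 to 469.

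**Figure D2:**
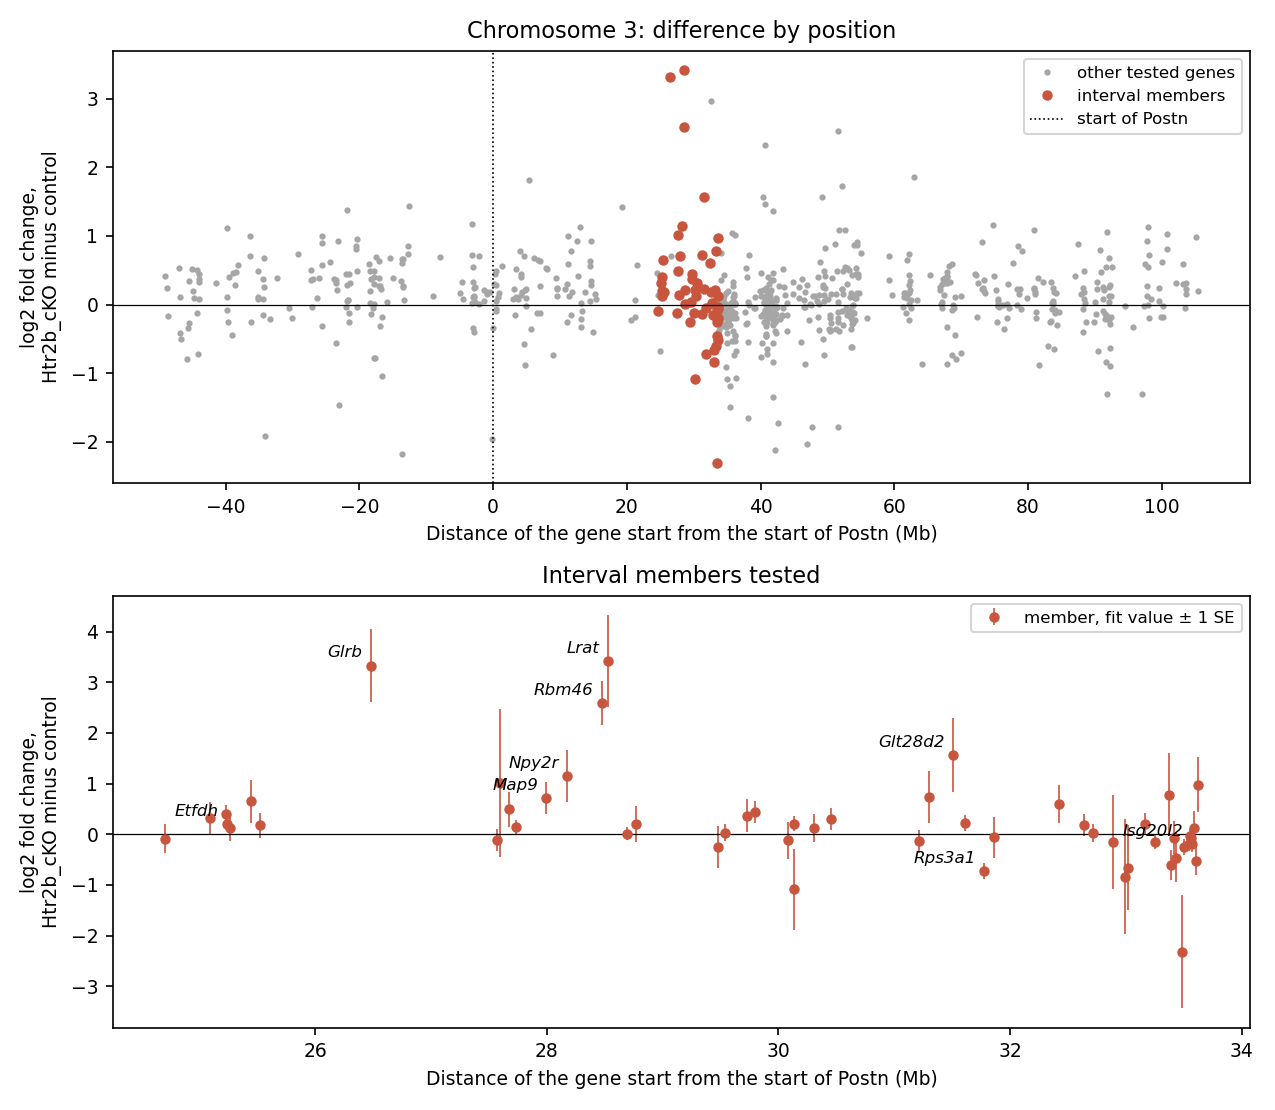
Log2 fold change (Htr2b_cKO minus control) against distance from the start of Postn in Mb, for all tested chromosome 3 genes (top, members in red) and for tested members with bars of 1 SE (bottom). The 3 genes the interval was picked on stand above 2 between 26.48 and 28.53 Mb, while most genes on both sides lie nearer 0, apart from a few sparse genes.

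At the proximal edge, Rapgef2 (chr3:79062516-79286517), an exchange factor for the GTPase Rap, was the first member, 24.7 Mb from Postn. It read 32.8 and 60.4 CPM in the controls and 46.4, 35.7, 36.2 and 56.6 CPM in Htr2b_cKO, a log2 fold change of -0.09 (SE 0.28). Just outside, Fstl5 at 76074270 had 8 counts over the controls and 5 over the Htr2b_cKO libraries and was not tested. The nearest tested gene outside was Golim4, a Golgi membrane protein that starts at 75875084. It read 83.2 and 115.9 CPM against 165.4, 129.4, 161.7 and 139.1 CPM, and its log2 fold change was 0.58 (SE 0.18). At the distal edge, the last member Bcan, a glial proteoglycan, read 1.54 and 0.795 CPM against 4.21, 1.48, 2.02 and 1.96 CPM, a log2 fold change of 0.98 (SE 0.54). Outside it, Hapln2 was near 0 and not tested, and Gpatch4 read 11.3 and 16.7 CPM against 10.3, 15.8, 12.1 and 12.3 CPM. No boundary in the values marked either edge. The excluded genes inside the interval went separate ways: Pdgfc read 9.003 and 6.94 CPM against 14.8, 14.3, 13.6 and 9.71 CPM, and Sfrp2 read 505.5 and 863.4 CPM against 681.5, 672.2, 259.5 and 690.6 CPM.

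Along the chromosome, the interval's share of wholly higher genes lay within the range of the other windows. All tested genes of chromosome 3, coding or not, were cut into windows of 11 Mb. The window from 77 to 88 Mb held 61 of them, with 13.1% wholly higher and 3.28% wholly lower. Over all tested genes the shares were 10.6% and 8.98%. The higher genes of this window include Glrb, Rbm46 and Lrat, on which the interval was picked, so its share follows in part from that choice. They also include Pdgfc, which the rule leaves out. The window from 33 to 44 Mb, proximal to Postn, had 41.5% wholly higher, and that from 66 to 77 Mb had 34.8%. The window holding Postn, from 44 to 55 Mb, had 14.7%. The next one distal to the interval, from 88 to 99 Mb, had the opposite tilt, with 5.08% wholly higher and 14.2% wholly lower among 197 genes. Its median GC content was 52.2%, against 43.3% in the window from 33 to 44 Mb. After correction for GC content and length, 6.77% of all tested genes lay wholly higher and 7.8% wholly lower. The window from 33 to 44 Mb then had 19.5% wholly higher, and that from 66 to 77 Mb had 17.4%. The window from 154 to 165 Mb had the largest share, 20% of 15 genes. The window from 77 to 88 Mb, which holds the picked genes, read 13.1%. Postn itself, whose 1 allele carries the Cre in Htr2b_cKO mice, read 2309 and 1586 CPM against 1350, 1526, 2312 and 981.8 CPM and overlapped.

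Among tested members, the largest fold changes by size were those of the 3 genes the interval was picked on. A log2 fold change over 2 together with non-overlap occurred in 3 of 54 members, in 0.461% of all tested genes and in 1 of the other 720 tested genes of chromosome 3, Tmigd3. All 3 members were the genes on which the interval was picked, so that count follows from the choice and nothing is read from it. Glrb (4 and 2 counts in the controls) and Lrat (3 and 8) passed the low-count filter only through the Htr2b_cKO libraries.

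**Figure D3:**
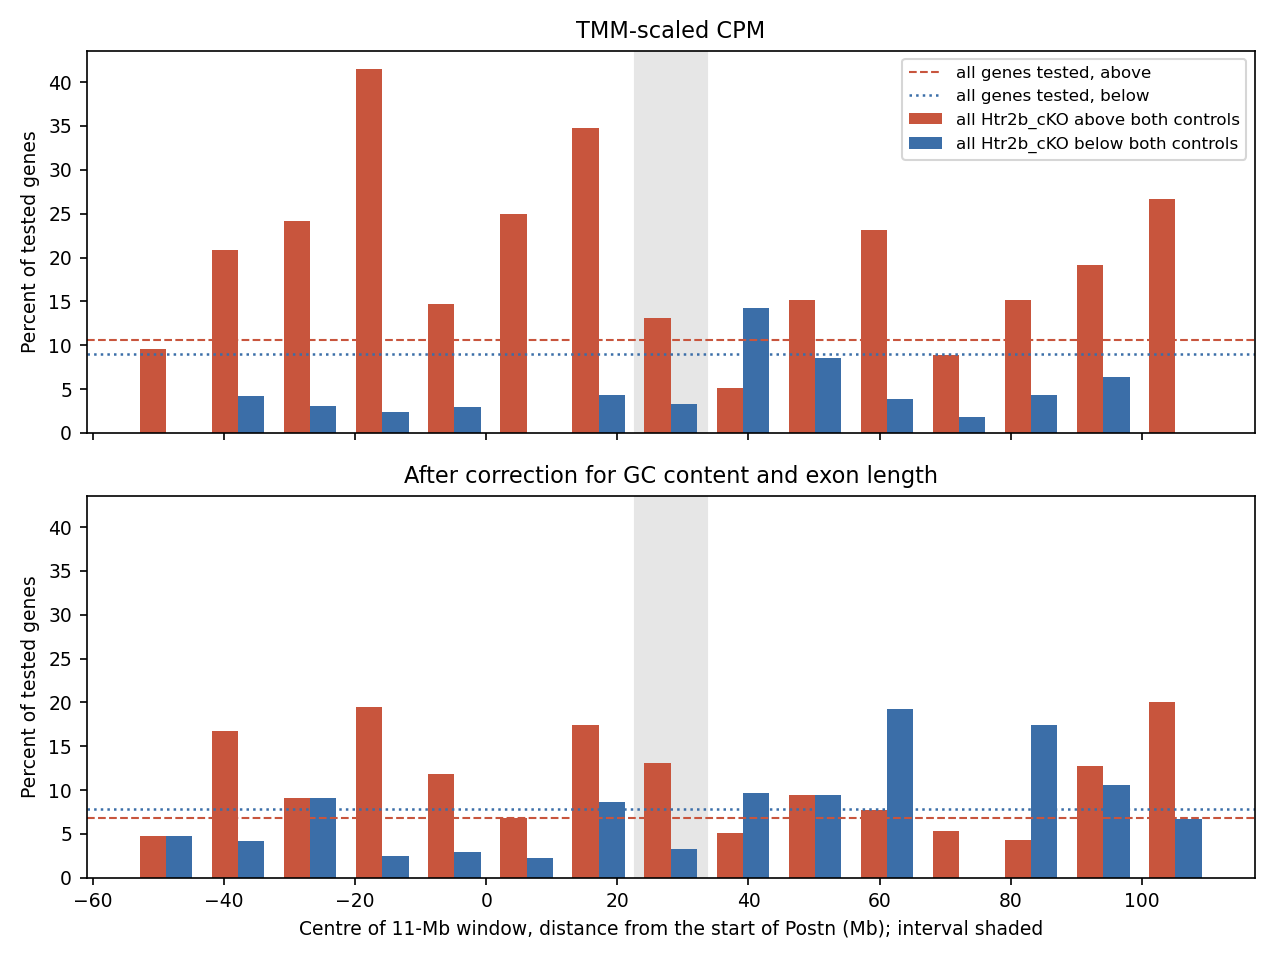
Percent of tested genes with all Htr2b_cKO libraries above (red) or below (blue) both controls, in windows of 11 Mb along chromosome 3, in scaled CPM (top) and after correction for GC content and length (bottom), with lines for all tested genes and the interval shaded. For the higher share, the window from 33 to 44 Mb is highest in scaled CPM at 41.5% and reads 19.5% with the correction. Over all tested genes that share is 10.6% in scaled CPM and 6.77% with the correction. The window from 77 to 88 Mb, which holds the genes the interval was picked on, is at 13.1% in both.

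Rps3a1 (ENSMUSG00000028081, chr3:86137940-86142702) encodes a component of the small subunit of the ribosome and was by far the most abundant member, at a mean of 712.5 CPM per kilobase of exon, with Hdgf next at 86.5. It read 909.1 and 983.1 CPM in the controls and 493.1, 559.9, 651.1 and 580.5 CPM in Htr2b_cKO 1 to 4, a log2 fold change of -0.73 (SE 0.16). No Htr2b_cKO library reached either control. Its near-identical processed copies moved the other way. Rps3a2 on chromosome 14 read 42.1 and 38.7 CPM against 256.0, 262.1, 336.3 and 275.6 CPM. Rps3a3 on chromosome 13 read 0.364 and 0.289 CPM against 84.9, 104.1, 118.7 and 106.5 CPM. The remaining copy, Gm13408 on chromosome 2, stayed between 1.25 and 3.40 CPM.

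A stretch of 120 coding bases, positions 549 to 668 counted from the A of the Rps3a1 start codon, shows how few letters separate the 3 main copies. Capitals mark the 4 positions at which they are not all the same.
Rps3a1: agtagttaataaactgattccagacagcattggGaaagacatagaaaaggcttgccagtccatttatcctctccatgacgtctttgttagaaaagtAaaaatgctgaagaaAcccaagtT
Rps3a2: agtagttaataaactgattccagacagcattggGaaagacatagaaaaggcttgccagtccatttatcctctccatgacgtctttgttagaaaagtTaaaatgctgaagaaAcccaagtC
Rps3a3: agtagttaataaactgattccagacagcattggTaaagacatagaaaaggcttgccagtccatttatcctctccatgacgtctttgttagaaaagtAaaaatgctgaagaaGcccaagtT
Sequences are from the GENCODE M21 transcripts. Over the whole coding sequence of 795 bases, Rps3a2 differed from Rps3a1 at 4 aligned positions (T216C, T534C, A645T and T668C) and Rps3a3 at 9 (T216C, T260C, C363T, A427T, T534C, G582T, A660G, C762T and G792A), with the Rps3a1 base first. The longest run with no difference was 317 bases for Rps3a2 and 215 for Rps3a3. Reads that fall inside such a run cannot be placed by sequence, so the split of counts among the copies is uncertain. Their sum did not separate the groups: it was 954.5 and 1025 CPM in the controls and 835.3, 929.5, 1109 and 964.8 CPM in Htr2b_cKO, or 989.7 ± 49.7 (SD, n = 2) against 959.6 ± 113.5 (SD, n = 4). The share of that sum counted to Rps3a1 was 95.6% in the controls and 59.5% in Htr2b_cKO. Whether the copies differ in sequence between these mice was not tested.

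**Figure D4:**
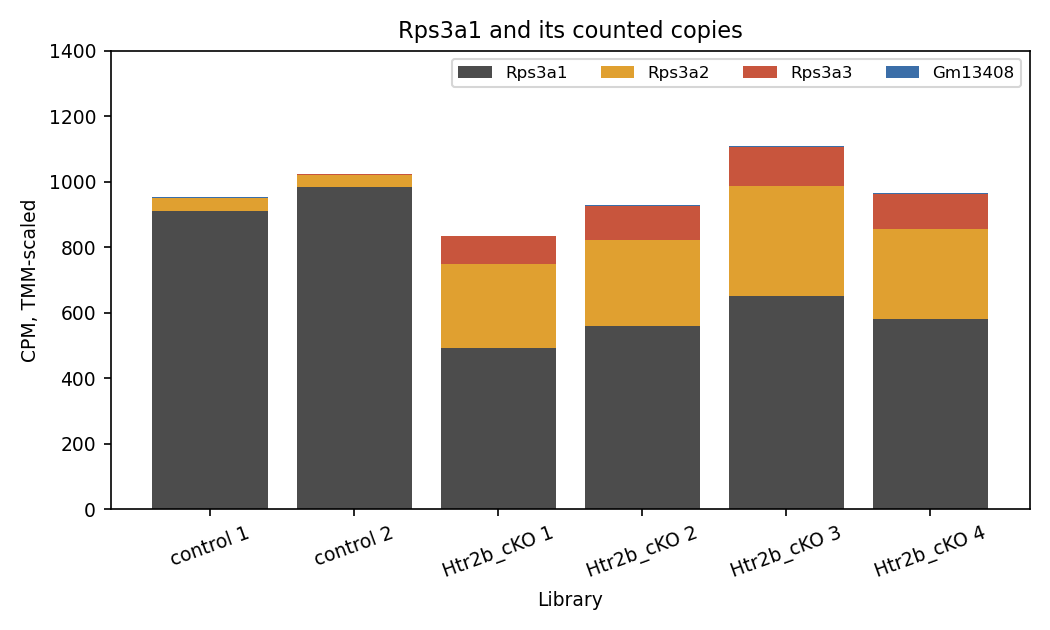
CPM of Rps3a1 and its copies Rps3a2, Rps3a3 and Gm13408 in each of the 6 libraries, stacked to their sum from 0. The sum runs from 835.3 to 1109 CPM, while Rps3a1 fills nearly all of it in both controls and less in every Htr2b_cKO library.

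Other members with near-identical counted copies were Ppid, Mnd1, Gm6525 and Cd1d1. Cd1d1 presents lipid antigens to NKT cells, and it read 10.02 and 11.1 CPM against 11.05, 14.0, 9.27 and 13.3 CPM. Its adjoining copy Cd1d2 had 0 and 6 counts in the controls and 0, 36, 7 and 53 in Htr2b_cKO 1 to 4, with the higher values in Htr2b_cKO 2 and 4. Ppid, a cyclophilin, read 23.9 and 29.97 CPM against 35.6, 40.8, 28.8 and 36.4 CPM, and its copies held under 1 CPM in each library. Mnd1, a partner of the meiotic recombinase, read 2.52 and 2.86 CPM against 4.24, 2.56, 3.20 and 3.86 CPM.

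After Rps3a1 the 7 with the highest mean CPM were Hdgf, Sh3d19, Kirrel, Fam198b, Gucy1a1, Pear1 and Arfip1, and in all 7 the groups overlapped. With the correction for GC content and length, the small positive fold changes of Fam198b, Gucy1a1 and Arfip1 became -0.20, -0.04 and -0.06 on the log2 scale. Hdgf, a heparin-binding growth factor, read 283.5 and 258.1 CPM against 240.8, 274.0, 216.8 and 218.4 CPM, a log2 fold change of -0.19 (SE 0.15). Sh3d19, an adaptor of membrane traffic, had 0.23 (SE 0.16), the adhesion protein Kirrel 0.02 (SE 0.17), the Golgi kinase Fam198b 0.18 (SE 0.25) and Arfip1, which binds ARF GTPases, 0.21 (SE 0.15) as log2 fold changes. Pear1, a platelet and endothelial receptor, read 74.3 and 111.7 CPM against 55.8, 55.7, 43.1 and 89.8 CPM, a log2 fold change of -0.60 (SE 0.29). Summed endothelial markers were 354.6 and 87.2 CPM against 168.5, 106.8, 167.1 and 93.5 CPM, and their part in the Pear1 values was not tested.

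Several immune genes of the interval varied widely between libraries of the same group: Tlr2 lies in its middle, and Fcrls and Cd5l lie near its distal end. Fcrls, a gene of resident macrophages, read 37.2 and 11.03 CPM against 16.2, 21.9, 45.3 and 3.68 CPM. Tlr2, a receptor for bacterial lipoproteins, read 47.3 and 44.1 CPM against 26.5, 41.6, 64.0 and 21.4 CPM. Cd5l, secreted by macrophages, read 42.7 and 41.9 CPM against 9.19, 62.0, 22.0 and 1.49 CPM. Fcrls and Tlr2 were highest in Htr2b_cKO 3 and lowest in Htr2b_cKO 4, as was the macrophage sum (2684 and 943.1 CPM against 897.1, 2272, 4288 and 514.1 CPM). Of 7 tested genes in the list for lipid antigen presentation and Fc receptor-like proteins, none separated the groups in either direction. Over all genes, 10.6% lay wholly higher and 8.98% wholly lower. None of the 7 was called by edgeR or had an unadjusted p under 0.05 (6.6% of all genes higher, 2.99% lower). Each of the 10 macrophage markers was detected, and their part in these values was not tested.

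For retinoid handling, 21 of 22 listed genes were tested: 10 had a log2 fold change above 0 and 11 below, the median was -0.03, and none was called by edgeR at an adjusted p under 0.05. At an unadjusted p under 0.05 in the same test, 1 was higher (6.6% of all genes) and 1 lower (2.99%). Only Lrat, on which the interval was picked, lay wholly higher, where 10.6% of all tested genes did so. Only Rara, a retinoic acid receptor, lay wholly lower (8.98% of all genes). Rara read 28.0 and 30.8 CPM against 24.5, 24.4, 22.7 and 27.5 CPM. Crabp2, which carries retinoic acid to the nucleus and is also a member, read 29.2 and 23.8 CPM against 40.1, 31.8, 15.4 and 28.4 CPM. Aldh1a2, which makes retinoic acid, had a log2 fold change of -0.09 (SE 0.21).

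For the inhibitory synapse, 5 of 10 listed genes were tested, with none called by edgeR. Only Glrb, on which the interval was picked, lay wholly higher (10.6% of all genes), and none lay wholly lower (8.98%). The alpha subunits with which GLRB forms a glycine receptor were nearly undetected: Glra2, Glra3 and Glra4 had at most 2 counts in any library, and Glra1 had 10 counts in control 1 and at most 2 elsewhere. Gphn, the gephyrin anchor, read 16.2 and 18.9 CPM against 20.2, 21.2, 13.9 and 19.8 CPM.

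Among genes of meiosis and germ cell RNA binding, 7 of 12 were tested. Of these, 6 had fold changes above 0, Rbm46 among them, beside 50% of all tested genes. The median log2 value was 0.49, and none was called by edgeR. At an unadjusted p under 0.05 in the same test, 2 were higher (6.6% of all genes) and 0 lower (2.99%). Besides Rbm46, on which the interval was picked, Ythdc2 lay wholly higher, where 10.6% of all tested genes did so. None lay wholly lower (8.98% of all genes). Ythdc2, an RNA helicase needed for entry into meiosis, read 4.397 and 6.33 CPM against 9.30, 12.1, 7.58 and 9.92 CPM, a log2 fold change of 0.87 (SE 0.27). Dmc1, the meiotic recombinase, read 0.312 and 0.108 CPM against 0.926, 0.693, 0.483 and 0.0594 CPM and overlapped.

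In nitric oxide and cGMP signalling, all 16 measured genes were tested, the median log2 value was 0.13, and none was called by edgeR. Of the 16, Pde1a lay wholly higher, beside 10.6% of all genes, and Npr1 and Vasp lay wholly lower, beside 8.98%. Npr1, the receptor for atrial natriuretic peptide, which also lies on chromosome 3, read 63.0 and 90.03 CPM against 40.5, 35.7, 50.3 and 56.3 CPM, a log2 fold change of -0.74 (SE 0.21).

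The lists drawn up from the interval itself were short, so nothing is read from their counts. Over all genes, 10.6% lay wholly higher and 8.98% wholly lower. In the mitochondrial list Etfdh was wholly higher among 4 tested genes, and none was lower. In the list of ubiquitin, autophagy and lysosome genes none of 6 separated in either direction. Among the neural and glial genes Npy2r was wholly higher among 7, and none was lower. Nes, the intermediate filament nestin, read 57.1 and 44.4 CPM against 29.2, 46.4, 42.8 and 22.8 CPM. No gene of these 3 lists was called by edgeR or had an unadjusted p under 0.05 (6.6% of all genes higher, 2.99% lower). No fibrinogen gene passed the count filter: Fgg had 0 and 0 counts in the controls and 0, 3, 7 and 3 in Htr2b_cKO. Fga had 1 and 2 counts against 0, 0, 2 and 0, and Fgb had 0 and 0 against 0, 0, 0 and 1. Among listed hepatocyte genes, Ttr was at 0 in every library. Alb had 0 and 0 counts against 0, 4, 4 and 1, and Tat had 0 and 3 against 0, 0, 0 and 4. Ahsg of the same list read 17.28 and 28.35 CPM against 21.17, 28.29, 12.89 and 19.96 CPM.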

How the data were processed

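Gene expression was measured by RNA sequencing in 6 libraries (2 control, 4 Htr2b_cKO), with a strand-keeping kit applied to total RNA, per the labels. The authors deposited estimated counts, whole and unscaled, for each Ensembl gene, and these entered the fit unrounded. The normalized signal the authors deposited divides every count by its own scaling factor, and was used only where named and as offsets in an alternative. DRAGEN, DESeq2 and mm10 are named in the submitters' processing notes, while no counting setting, strand included, is given in the sources used here.

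Counts were fitted by edgeR 4.0.16's quasi-likelihood method (R 4.3.3, limma 3.58.1), genotype as the only term, after TMM scaling and filterByExpr (minimum count 10), with Benjamini-Hochberg adjustment over all 15840 tested genes. This leaves the members' own differences as descriptions. DESeq2 1.42.0 was an alternative. Not overlapping means that all 4 Htr2b_cKO CPM values lay above, or all below, both controls. The GC and length alternative removed a loess curve (span 0.3) per library. All 42256 gene identifiers were found in GENCODE M21. Copies were found with blastn 2.17.0 as transcripts aligned over at least 200 bases at 95% identity or more. Promoters came from RefSeq (GRCm38.p6), matched by symbol. The fit was tested on simulated data.

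Replicate numbers follow accession order and pair no samples. Nothing in the labels ties each library to a named animal beyond the series' mention of animals, so spreads are between libraries. Intervals and the limit of 3 counts cover counting error only. Members and gene lists were chosen with earlier results of these data known. Named were Glrb, Rbm46 and Lrat; Postn, Pdgfc and Sfrp2; non-overlapping members; the 8 members of highest mean CPM; genes at the interval's edges; members with copies; and up to 4 genes per list. Genes named in other ways (Ctso, Tdo2, Gria2 and the distal immune and neural genes) were chosen after their values were seen. Legacy dispersions were an alternative added after seeing the data.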

Additional observations from a re-analysis of the deposited data

Results flagged for a closer look

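In 3 of the 54 tested members, 1 of the 4 Htr2b_cKO libraries lay far from the other 3, with a gap relative to the group's whole range above the 95% critical value of Dixon's test. Chance alone flags about 1 in 20 groups, which is 2.7 of 54. For Tdo2 the gap was 0.943 of the range, with Htr2b_cKO 4 at 6.06 CPM and the others between 0.178 and 0.513 CPM. For Sh2d2a, an adaptor of T cells, it was 0.949, with Htr2b_cKO 4 at 0.594 CPM and the others between 0 and 0.0302 CPM. Control 1 stood at 1.38 CPM of Sh2d2a and control 2 at 0.217 CPM. For Rrnad1 it was 0.922, with Htr2b_cKO 3 at 11.1 CPM and the others between 8.40 and 8.62 CPM. Rrnad1 overlaps Mrpl24 and Isg20l2 on the opposite strand.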

How the results depend on the processing

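Of 208 fold changes of named genes under the alternatives, 185 moved by less than the gene's SD over the Htr2b_cKO libraries on the log2 scale and 22 moved further. In 1 gene whose groups did not overlap the direction reversed: Etfdh had -0.034 with the GC and length correction. Of the abundant members with overlapping groups, Fam198b, Gucy1a1 and Arfip1 also changed sign with it. Gucy1a1, Kirrel and Fam198b, all near 0, changed sign when certain libraries were left out. The GC and length correction took the median of the members from 0.12 to 0.039. Members wholly lower numbered 2, and 1 with DESeq2's size factors in edgeR (9.28% of all genes), with DESeq2 itself (7.43%) or with the deposited factors (8.4%). At an unadjusted p under 0.05, 3 members were higher, and 5 with the deposited factors (4.96% of all genes). In the same test 1 was lower, against 2 with DESeq2 (1.51%) and 3 with no count filter (2.17%). DESeq2 called 3 members (0.442%) and edgeR 0. Without both Htr2b_cKO 3 and 4, 13 members were wholly higher (21.1% of all genes) and 8 wholly lower (21.4%), with 5 higher (5.85%) and 3 lower (3.84%) at an unadjusted p under 0.05. Leaving out single libraries gave 8 to 17 members wholly higher, 2 to 9 wholly lower, 2 to 7 higher and 1 to 3 lower at an unadjusted p under 0.05, and a median of 0.089 to 0.24. The highest counts of non-overlapping members came without control 2 (24.3% of all genes higher, 23.1% lower). Without control 1 they were 15 and 7 (17.6% and 17.3%). Without Htr2b_cKO 3, 11 members lay wholly higher (17.3%), and 7 were higher at an unadjusted p under 0.05 (8.62%). Without Htr2b_cKO 2, 4 members lay wholly lower (12.1%), and without Htr2b_cKO 4, 5 did so (12.5%). Requiring 97% identity left 2 members with copies in place of 5. With 2 controls, fold changes of members under 1 CPM rest on few counts. No paired analysis was possible because the labels give the libraries no shared replicate numbers.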

Other observations

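The interval also holds 94 entries annotated as noncoding or as pseudogenes. Only 5 of them passed the count filter, and in all 5 the groups overlapped. The share of tested genes wholly higher in Htr2b_cKO was 15.6% over chromosome 3 as a whole, beside 10.6% of all tested genes. It ran from 7.5% on chromosome 7 to 17.1% on the X chromosome. Median GC content was 46.83% on chromosome 3, 52.45% on chromosome 7 and 45.81% on the X chromosome. Without the members, chromosome 3 had 15.8% wholly higher. With the correction for GC content and length it had 8.89%, beside 6.77% of all genes.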
